A study of Mus musculus with 10 samples.

Results

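Malat1 and Meg3 are the 2 of 12393 measured genes described here, as read by every probe set that the platform annotation assigns to either symbol alone. There were 5 probe sets for Malat1 and 5 for Meg3, and 0 probe sets with several symbols named either gene. Both genes were chosen from measured values, because Malat1 went opposite ways in 2 preparations of kidney RNA and Meg3 stood high in a further one. Their differences between contralateral and normal kidneys are therefore given as a description, with no test.

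Malat1 is an abundant long non-coding RNA that stays in the nucleus, in the speckles where splicing factors gather. Its end is made by RNase P, which releases a small tRNA-like RNA and leaves a triple helix in place of a poly(A) tail. Meg3 is a non-coding RNA of the imprinted Dlk1-Dio3 locus, expressed from the maternal chromosome, and in human cells it is known for raising p53 activity and for binding the Polycomb repressive complex PRC2.

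All mice were C57/BLACK6 males that were 7 weeks old and weighed about 20 g. Contralateral kidneys were the unclamped kidneys of mice under diethylether whose left renal artery and vein had been clamped for 45 min through a flank incision. They received 4-thiouridine (s4U, 200 µM, with 34 µCi of 3H-cytidine, in 1 ml into the abdomen) 1 h and 2 h after reperfusion, and the contralateral kidney was taken at 3 h. Normal mice received the label at 0 h and 1 h, with removal of the kidney at 2 h. The labels mention water as a control without saying for which mice, and no sham operation is described, so surgery, anaesthesia and times cannot be told apart from the kidney group. For each kidney group, total RNA and amplified total RNA were hybridised to 2 arrays each, and newly transcribed RNA, the fraction that carries s4U, to 1 array. No amplification is named for the plain total RNA. The titles speak of biological replicates without naming mice. The p-values therefore measure only the spread between the 2 arrays of each total and amplified RNA group.

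The arrays differed in brightness and in 3' bias. For newly transcribed RNA the median deposited intensity was 18.6 on the contralateral array, against 70.3 on the normal array, and it lay between 26.6 and 59.7 for the other 8. Gapdh control probe sets had a ratio of 3' to 5' signal of 68.9 on the contralateral and 12.7 on the normal newly transcribed array, and those of Actb 24.8 and 12.7. The Gapdh ratio was 4.39 and 6.23 in contralateral and 4.21 and 5.29 in normal amplified RNA, and 1.03 and 1.12 in contralateral and 0.938 and 0.972 in normal total RNA. The part of this bias in the values of Malat1 and Meg3 was not tested. As a check of the tissue, all measured markers of proximal tubule (8), thick limb and distal tubule (5) and collecting duct (3) lay above the array median on all 10 arrays, and all 5 skeletal muscle markers below it. In bulk tissue, fewer cells of a type and less RNA per cell cannot be told apart.

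The promoters of both genes are shown because the genes share no chromosome and, among the motifs searched, differ in what their start sites carry. They are RefSeq windows of 250 bases before to 50 bases after the start site in build GRCm38.p6, read in the direction of the gene. The Malat1 window lies at chr19:5802623-5802922 on the minus strand, and that of Meg3 at chr12:109540746-109541045 on the plus strand. Capitals mark the cAMP response element TGACGTCA, its core TGACG and the TATA box TATAAA, each searched on both strands, so that overlapping matches run together.
Malat1: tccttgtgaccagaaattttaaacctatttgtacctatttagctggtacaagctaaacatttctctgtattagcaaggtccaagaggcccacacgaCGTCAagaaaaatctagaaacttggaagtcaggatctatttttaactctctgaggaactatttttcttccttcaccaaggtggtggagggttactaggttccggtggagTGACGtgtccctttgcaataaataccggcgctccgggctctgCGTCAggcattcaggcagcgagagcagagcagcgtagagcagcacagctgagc
Meg3: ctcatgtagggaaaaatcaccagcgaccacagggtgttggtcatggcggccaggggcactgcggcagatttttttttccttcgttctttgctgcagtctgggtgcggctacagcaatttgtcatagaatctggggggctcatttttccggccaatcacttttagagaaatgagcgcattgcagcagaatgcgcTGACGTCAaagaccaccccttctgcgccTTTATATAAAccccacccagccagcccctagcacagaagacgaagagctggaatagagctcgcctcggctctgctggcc
The Meg3 window held TGACGTCA 57 bases and TATAAA 25 bases before the start site, and a TATAAA on the other strand overlapped it, 29 bases before the start site. The Malat1 window held neither, and had TGACG on its own strand 45 bases before the start site and on the other strand 154 and 3 bases before it. Of 32851 mouse promoter windows of the same length, 1.79% held TGACGTCA, 20.8% TGACG and 13.6% TATAAA. Another Meg3 start, at chr12:109545148-109545447, held none of them. A match is a description of letters only. The G and C content was 47.0% for Malat1 and 53.7% for Meg3, against a median of 52.7% over all windows.

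Probe sets of 1 gene are not independent. For Malat1, 1418188_a_at and 1418189_s_at come from one source sequence, 1427285_s_at and 1452378_at from another, and 1438403_s_at has its own. For Meg3, 1426758_s_at and 1452183_a_at share a source sequence. By the maker's naming, _a marks probes that match several transcripts of a gene, _s probes that match several transcripts, and _x probes with partial matches elsewhere, so such signal may not be the named gene's alone. Where each probe set lies along its transcript was not used here. Brightness cannot be compared between probe sets, and each is described against itself. A probe set was tested if its mean signal exceeded the 40th percentile of all means, which kept 4 of the Malat1 and 2 of the Meg3 probe sets. The Malat1 probe set 1427285_s_at fell just short, with a mean at percentile 39.9, and the lowest kept member was Meg3 1426758_s_at at percentile 50.3. Meg3 1436057_at, 1436713_s_at and 1452183_a_at had means no higher than percentile 29.2.

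Malat1 stood higher in contralateral than in normal kidneys in total RNA, in 4 of its 5 probe sets, and lower in amplified total RNA, in 5 of 5. In total RNA probe set 1418189_s_at, whose mean over the 10 arrays was the highest of the 5, had deposited intensities of 916.9 and 801.6 in contralateral kidneys, against 375.4 and 238.8 in normal kidneys. In amplified total RNA it had 295.8 and 616.0 in contralateral kidneys, against 3659.6 and 3477.1 in normal kidneys. On the newly transcribed arrays it had 271.1 in the contralateral kidney, against 4050.4 in the normal kidney. The contralateral arrays were thus the higher ones in total RNA and the lower ones in both other preparations, without overlap. After normalization, on the scale log2(intensity + 11.8), the contralateral minus normal difference was 1.91 in total RNA (3.77-fold higher), -2.97 in amplified RNA (7.81-fold lower) and -2.49 in newly transcribed RNA (5.60-fold lower). This scale understates the change of dim probe sets.

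Probe set 1418188_a_at, of the same source sequence, had 385.1 and 360.3 in contralateral and 135.1 and 108.2 in normal total RNA. In amplified RNA it had 25.5 and 79.2 in contralateral kidneys, against 332.1 and 312.5 in normal kidneys. Its newly transcribed values were 27.2 in the contralateral and 484.5 in the normal kidney. It went the same ways as 1418189_s_at, with normalized differences of 2.04 in total, -2.26 in amplified and -1.90 in newly transcribed RNA. Probe set 1452378_at, from another source sequence, had 142.0 and 145.1 in contralateral and 64.3 and 61.2 in normal total RNA. In amplified RNA it had 145.2 and 292.9 in contralateral kidneys, against 1360.0 and 1118.4 in normal kidneys, and on the newly transcribed arrays 175.7 in the contralateral and 1519.7 in the normal kidney. Its differences, 1.57, -2.29 and -1.30 in the same order of preparations, had the signs of the first 2 probe sets.

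The remaining Malat1 probe sets departed from this in newly transcribed RNA. The dim probe set 1427285_s_at had 30.4 and 24.2 in contralateral and 19.2 and 14.5 in normal total RNA, and 7.6 and 30.1 in contralateral and 37.4 and 55.5 in normal amplified RNA. Its newly transcribed intensities were 22.6 in the contralateral and 41.4 in the normal kidney. Its normalized differences were 0.74 in total, -0.93 in amplified and 0.74 in newly transcribed RNA. Probe set 1438403_s_at had 852.7 and 2210.7 in contralateral total RNA, which lay on either side of 1540.4 and 1327.8 in normal total RNA. In amplified RNA it had 39.5 and 159.4 in contralateral kidneys, against 572.0 and 637.4 in normal kidneys. Its newly transcribed intensities were 975.3 in the contralateral and 1648.0 in the normal kidney. The normalized differences were 0.31, -2.46 and 0.67, and the sign in total RNA turned to -0.24 without contralateral total RNA replicate 2, the array at 2210.7. For both probe sets the deposited newly transcribed value was lower in the contralateral kidney and the normalized value higher, on arrays whose median intensities were 18.6 and 70.3.

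Over all 5 Malat1 probe sets, both contralateral arrays lay above both normal arrays in 4 in total RNA and below them in 5 in amplified RNA. Among the 13575 tested probe sets, 22.3% lay above in total RNA and 25.3% below in amplified RNA, and 5.98% did both (5.79% did the reverse of both). These counts rest on the values that chose the gene, so nothing is read from them. A difference of at least 1 upward in total RNA with at least 1 downward in amplified RNA was found in 14 tested probe sets (0.103%), of which 3 were those of Malat1. The others with a single gene symbol belonged to Pank3, Sptbn1, Srrm1, Atrx, Crim1, Resf1, Rcor1, Cald1, Ppara and Sfpq, and 1 probe set was unnamed; they are listed for having that pattern. On newly transcribed arrays, 3 of the 5 Malat1 probe sets were lower by at least 1 on the log2 scale and 0 higher, where 18.5% of tested probe sets were lower and 14.3% higher by that much, 32.8% in all.

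**Figure D1:**
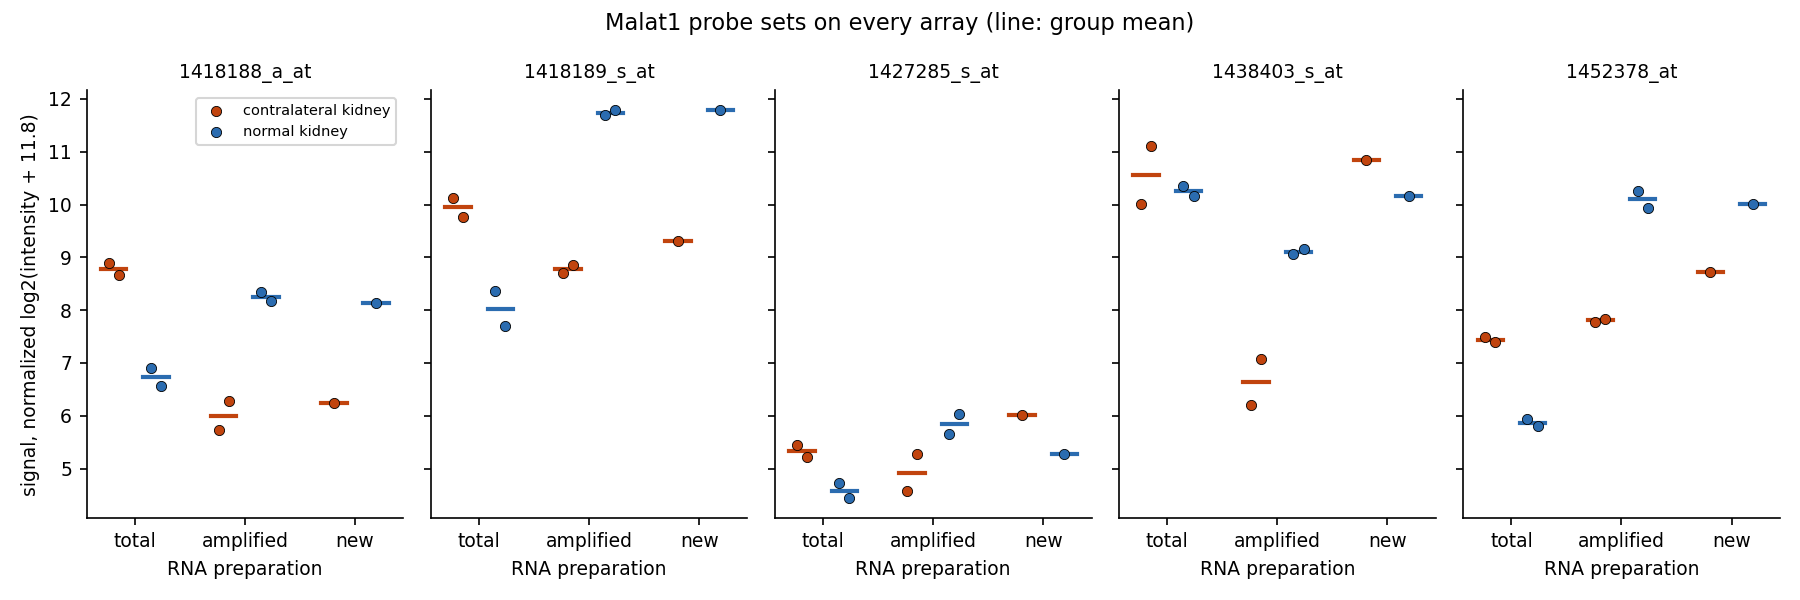
Normalized log2 signal of the 5 Malat1 probe sets (1 panel each) on the 10 arrays, by RNA preparation, with contralateral kidneys left of normal kidneys; points are arrays and lines group means. Contralateral arrays lie above normal ones in total RNA and below them in amplified RNA for all but 1438403_s_at, whose total RNA arrays overlap.

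The groups can also be ordered within a probe set. For 1418189_s_at the order ran from normal newly transcribed RNA (11.79) and normal amplified RNA (11.74 ± 0.070, SD, n = 2), whose arrays overlapped, through contralateral total (9.94 ± 0.24), contralateral newly transcribed (9.30) and contralateral amplified RNA (8.78 ± 0.11) down to normal total RNA (8.03 ± 0.47). The 2 highest groups of 1452378_at were the same, at 10.10 ± 0.22 for normal amplified and 10.02 for normal newly transcribed RNA, also overlapping, and its lowest was again normal total RNA at 5.87 ± 0.090. For 1418188_a_at, however, contralateral total RNA was highest, at 8.78 ± 0.17. Probe set 1438403_s_at was highest in contralateral newly transcribed RNA (10.84) and lowest in contralateral amplified RNA (6.65 ± 0.61), and its 4 highest groups overlapped in turn. In 1427285_s_at, normal amplified RNA (5.85 ± 0.27) overlapped contralateral newly transcribed RNA (6.01) at the top. Across the 10 arrays, 1418189_s_at and 1452378_at had Pearson's r = 0.90, while 1438403_s_at had r between -0.11 and 0.49 with the 4 others; the arrays share their preparation and brightness, so these are descriptions.

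Amplified was then set against unamplified total RNA as a mean over both kidney groups, a contrast that does not use the difference between kidneys. The genes were chosen because preparations on these same arrays disagreed, so the p-values of their probe sets are given as a description. All 4 tested Malat1 probe sets passed, 2 higher and 2 lower, where 62.5% of all tested probe sets passed (34.1% higher and 28.4% lower). By limma with Benjamini-Hochberg adjustment over all tested probe sets, 1452378_at was higher in amplified RNA by 2.30 ± 0.095 (SE, adjusted p = 1.4e-08) and 1418189_s_at by 1.27 ± 0.13 (adjusted p = 9.23e-06). In the same fit 1438403_s_at fell by 2.53 ± 0.22 (limma, adjusted p = 2.51e-06) and 1418188_a_at by 0.63 ± 0.14 (adjusted p = 0.0021). Each passed in 18 of 18 alternative fits with the same sign. With arrays scaled to one median instead, the median of all tested probe sets was 0.20 in place of 0.04, and 67.8% of the calls were higher in place of 54.5%.

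That mean covers unlike values in the kidneys. The amplified minus unamplified difference of 1418189_s_at was -1.17 in contralateral and 3.71 in normal kidneys. For 1418188_a_at it was -2.78 in contralateral and 1.52 in normal kidneys, for 1452378_at 0.37 and 4.23, for 1427285_s_at -0.41 and 1.27, and for 1438403_s_at -3.92 and -1.15, contralateral first in each. A difference of at least 1 in size was found in 14.9% of tested probe sets in contralateral and 15.4% in normal kidneys. Newly transcribed minus amplified RNA gave 0.53 in the contralateral and 0.045 in the normal kidney for 1418189_s_at, and 0.91 and -0.077 for 1452378_at. For 1438403_s_at that difference was 4.20 in the contralateral and 1.07 in the normal kidney, the only Malat1 value of at least 1 in the normal kidney; 18.6% of tested probe sets reached that size in the normal and 27% in the contralateral kidney.

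The probe sets of Malat1 differed among themselves, in some comparisons by more than those of most genes. Among the 307 genes with at least 4 tested probe sets, Malat1 had the widest range between its probe sets for the contralateral difference in total RNA, 1.74 against a median of 0.45. It also had the widest for amplified minus unamplified RNA, 4.83 against 1.25. In amplified RNA its range of 0.71 was rank 131, near the median of 0.63, and in newly transcribed RNA its range of 3.16 was rank 26, against a median of 1.76. These ranks rest on values that chose the gene, so nothing is read from them. The low end of the total RNA range was 1438403_s_at, whose difference ran from -0.24 to 0.85 over the alternatives.

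Meg3 had its high signal on the contralateral newly transcribed array. Probe set 1439380_x_at, with the highest mean over the 10 arrays, had an intensity of 605.1 on that array, against 156.6 on the normal newly transcribed array. The other contralateral arrays had 32.4 and 44.0 in total and 60 and 75.5 in amplified RNA, against 62.1 and 92.0 in normal total and 82.0 and 77.2 in normal amplified RNA. One array of 10 thus stood far above the rest. Its normalized contralateral minus normal difference was 3.61 in newly transcribed RNA (12.2-fold higher), 1 array against 1 with no replicate, and -0.44 in total and -0.019 in amplified RNA.

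Other Meg3 probe sets gave other values on that array. Probe set 1452183_a_at had 90.8 on the contralateral and 35.1 on the normal newly transcribed array, and between 4.7 and 18.0 on the 8 others. Its newly transcribed difference was 2.71 (6.54-fold higher), and its total RNA difference was 0.52. Probe set 1426758_s_at, of the same source sequence, had 43.1 on the contralateral and 41.0 on the normal newly transcribed array. Its deposited values were nearly equal, and the normalized difference was 1.57, on arrays of median intensity 18.6 and 70.3. In total RNA it had 30.0 and 35.1 in contralateral kidneys, against 67.0 and 100.1 in normal kidneys, a normalized difference of -0.71 without overlap. In amplified RNA it had 26.6 and 43.2 in contralateral kidneys, against 33.9 and 33.9 in normal kidneys, a normalized difference of 0.15. Its highest group was contralateral newly transcribed RNA (6.84), followed by normal total RNA (6.22 ± 0.33, SD, n = 2).

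The 2 dimmest Meg3 probe sets did not have this high value. Probe set 1436057_at had 0.8 on the contralateral and 16.3 on the normal newly transcribed array, and between 2.5 and 17.4 elsewhere. Probe set 1436713_s_at had 4.2 and 13.6 on the same arrays and between 0.4 and 8.5 elsewhere. Their newly transcribed differences were -0.77 and -0.011. Of the 5 Meg3 probe sets, 3 were higher by at least 1 in newly transcribed RNA and 0 lower, where 14.3% of tested probe sets were higher and 18.5% lower by that much. This count rests on values that chose the gene, so nothing is read from it, and with a pseudocount of 50 the difference of 1426758_s_at was 0.9996, just under 1. Both contralateral arrays lay below both normal arrays in 2 of 5 in total RNA, 1426758_s_at and 1439380_x_at, and above them in 2, 1436057_at and 1452183_a_at, where 24.2% of tested probe sets lay below and 22.3% above. In amplified RNA 1 of 5 lay above (29.6% of tested probe sets did), and the others overlapped.

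**Figure D2:**
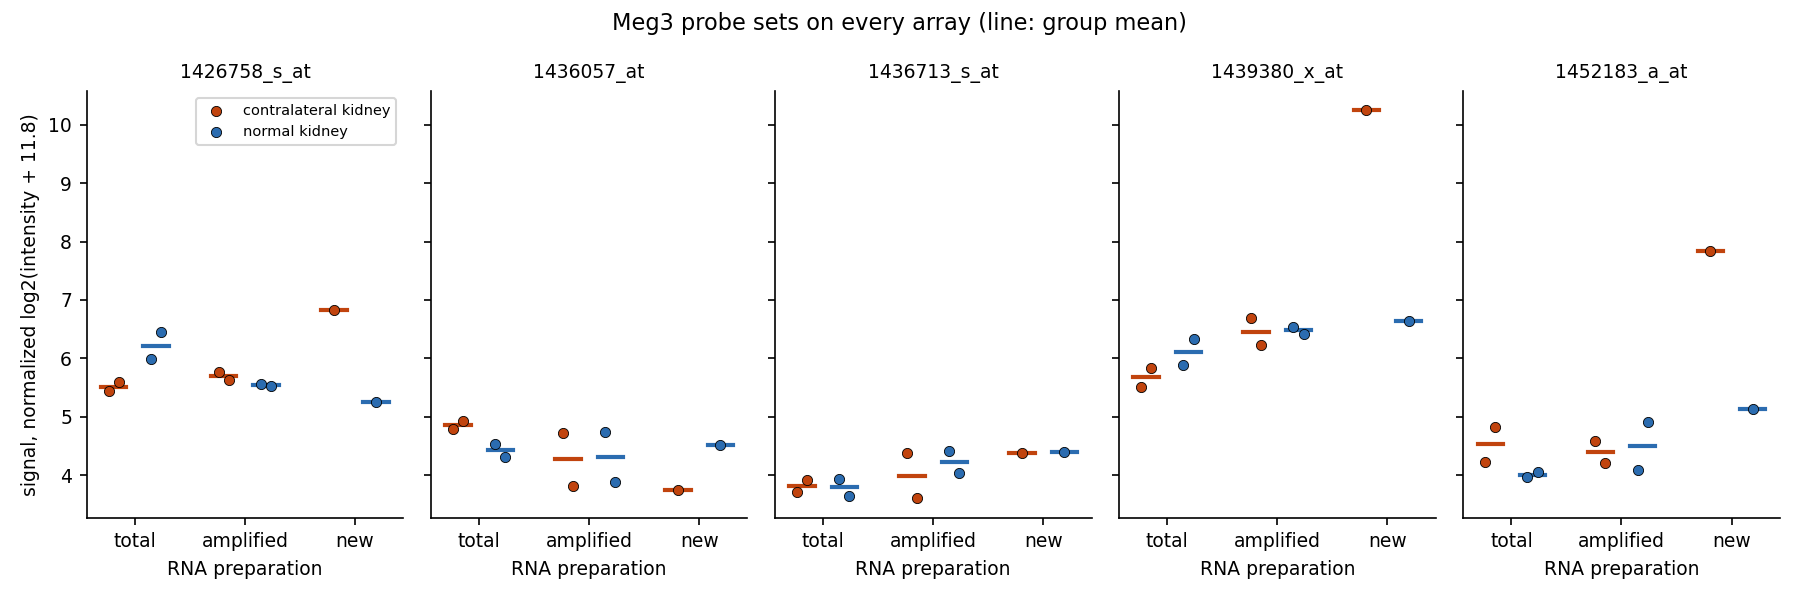
Normalized log2 signal of the 5 Meg3 probe sets (1 panel each) on the 10 arrays, by RNA preparation, with contralateral kidneys left of normal kidneys; points are arrays and lines group means. The contralateral newly transcribed array is the highest for 1426758_s_at, 1439380_x_at and 1452183_a_at, and not for the 2 others.

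Meg3 was also tested between amplified and unamplified total RNA over both kidney groups. The p-values are again a description, because of how the genes were chosen. Probe set 1439380_x_at rose by 0.58 ± 0.15 (limma, adjusted p = 0.00546), and passed in 18 of 18 alternative fits. Probe set 1426758_s_at did not pass, at -0.24 ± 0.14 (limma, adjusted p = 0.158), and passed in 1 of 17 alternative fits. Within contralateral and normal kidneys the differences were 0.79 and 0.37 for 1439380_x_at, and 0.18 and -0.67 for 1426758_s_at. Newly transcribed minus amplified RNA was 3.79 in the contralateral and 0.16 in the normal kidney for 1439380_x_at, and 3.43 and 0.63 for 1452183_a_at. Over the 10 arrays these 2 probe sets had Pearson's r = 0.93 and Spearman's rho = 0.49. Between the 2 tested Meg3 probe sets the newly transcribed difference ranged by 2.04, rank 173 of the 1958 genes with 2 tested probe sets, whose median range was 0.84. This rank too rests on values that chose the gene.

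**Figure D3:**
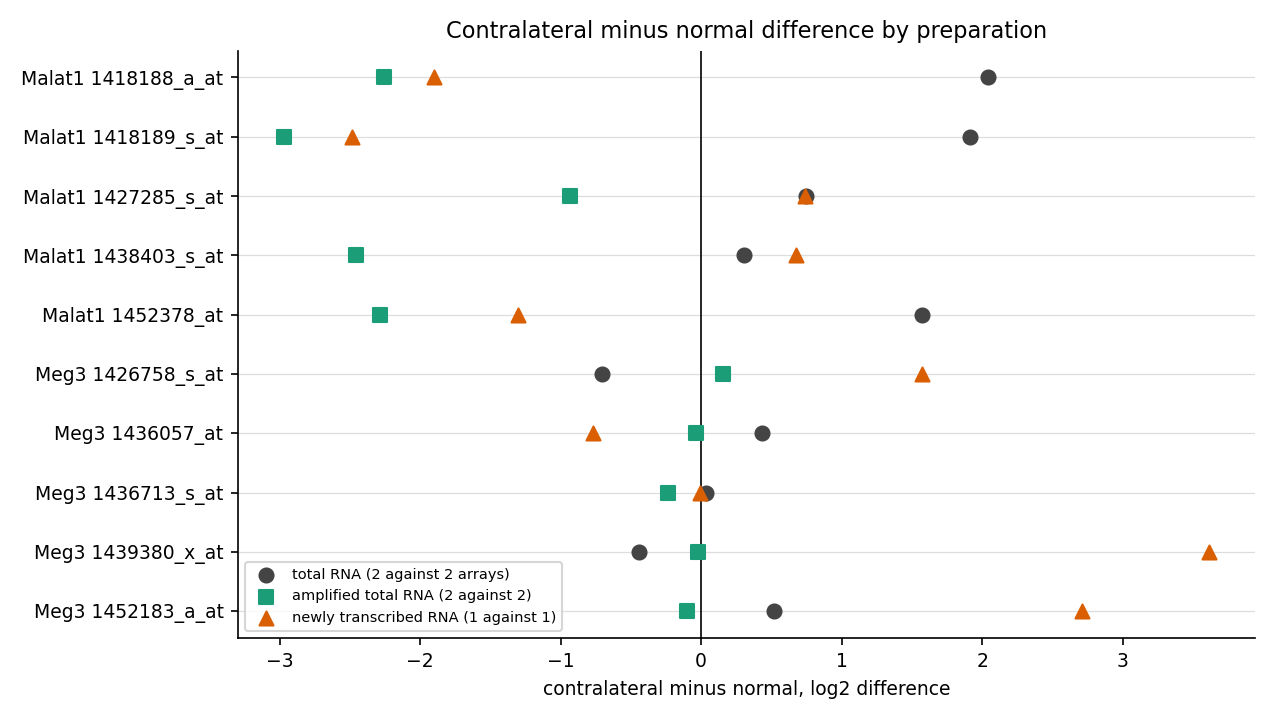
Contralateral minus normal difference (log2) of each Malat1 and Meg3 probe set in total RNA (circles, 2 arrays against 2), amplified total RNA (squares, 2 against 2) and newly transcribed RNA (triangles, 1 against 1). Circles and squares of Malat1 lie on opposite sides of 0, and triangles of Meg3 reach 3.61.

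Summed markers of several tissues and cell types, the kidney tubule included, took a larger share of signal on the contralateral newly transcribed array. Those of endothelium and podocytes took a smaller share. The 5 measured adipose markers summed to 0.014% of the signal on that array, against 0.002% on the normal newly transcribed array. On the other arrays they summed to between 0.006% and 0.008% in contralateral and between 0.003% and 0.007% in normal kidneys. All 3 that were tested were higher by at least 1, where 14.3% of all tested probe sets were. They were the fat cell hormones Adipoq (2.04) and Retn (2.65) and the brown fat uncoupling protein gene Ucp1 (2.49). Of the 5 adipose markers, 0 lay below the median of the contralateral newly transcribed array. The 10 fibroblast, pericyte and smooth muscle markers summed to 0.098% of the contralateral and 0.044% of the normal newly transcribed array. Among them 4 were higher and 1 lower by at least 1, where 14.3% of all tested probe sets were higher and 18.5% lower. The 10 leukocyte markers summed to 0.059% of the contralateral and 0.028% of the normal newly transcribed array. Csf1r alone gave 1081 of their summed contralateral intensity of 1254.2. Of the 7 tested, 2 were higher and 0 lower by at least 1, with a median of 0.55. The 9 adrenal markers summed to 0.007% and 0.004%, with 5 and 8 of them below the array median. The 5 skeletal muscle markers, all below the median, summed to 0.0014% and 0.0007%. Kidney tubule markers also took a larger share on the contralateral than on the normal array. The sums were 0.305% and 0.281% for proximal tubule, 0.257% and 0.192% for thick limb and distal tubule, and 0.0155% and 0.0128% for collecting duct. Lower in sum on the contralateral array were the 7 endothelium markers, 0.013% against 0.020%, and the 4 podocyte markers, 0.017% against 0.026%. Kdr alone gave 541.4 of the endothelium intensity on the normal and 43.9 on the contralateral array. Of the 7 endothelium markers, all tested, 0 were higher and 2 lower by at least 1, with a median of 0.018. Of the 3 tested podocyte markers 0 differed by that much, with a median of -0.30. The part of any of these cell types in the Meg3 values was not tested.

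Neat1, the paraspeckle RNA whose gene neighbours Malat1, did not follow it. Its probe set had 1407.0 and 1764.8 in contralateral and 2101.2 and 2056.8 in normal total RNA, and 1476.2 and 2581.9 in contralateral and 2380.2 and 2144.6 in normal amplified RNA. The normalized differences were -0.015 in total (limma, adjusted p = 0.966) and -0.026 in amplified RNA (adjusted p = 0.897), neither of which passed. On the newly transcribed arrays Neat1 had 1665.1 in the contralateral and 4445.5 in the normal kidney, a normalized difference of -0.49. The difference between Neat1 and Malat1 was not tested.

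**Figure D4:**
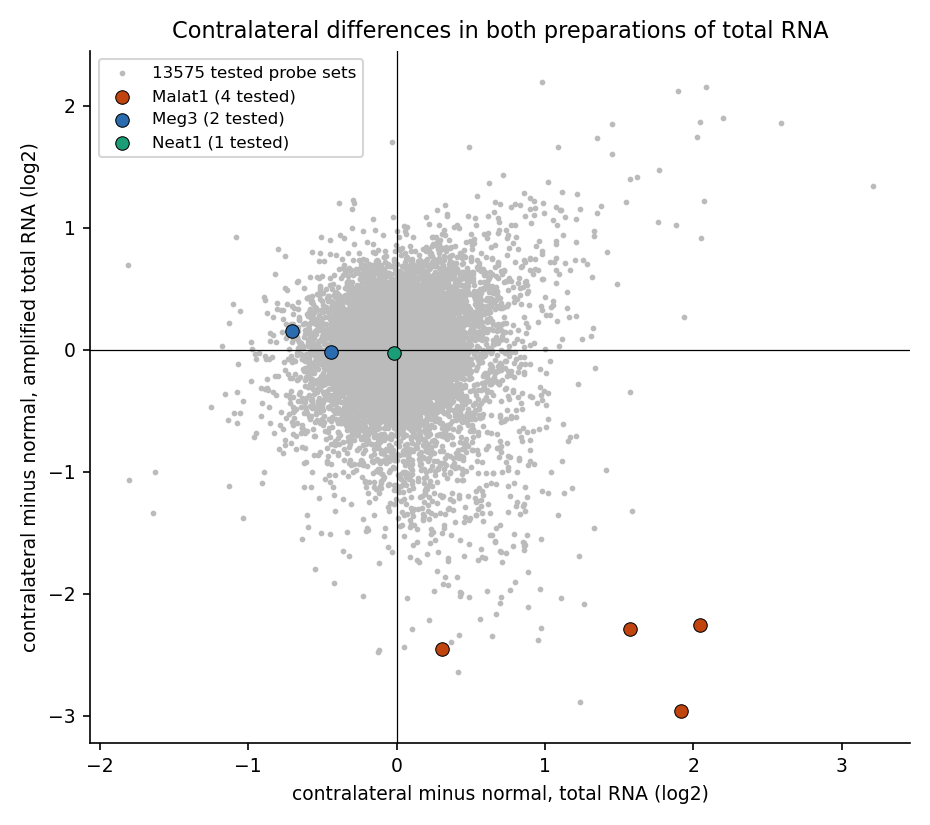
Contralateral minus normal difference (log2) in amplified total RNA (vertical) against total RNA (horizontal) for the 13575 tested probe sets, each from 2 arrays against 2. Malat1's 4 tested probe sets lie at the lower right and below, Neat1 near 0 on both axes and Meg3's 2 left of 0.

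Other long non-coding RNAs were called in neither kidney comparison. Of 37 listed, 16 were measured and 12 tested. By limma 0 of 12 passed in total RNA, where 1.92% of all tested probe sets did, and 0 of 12 in amplified RNA, where 10.3% did. At an unadjusted p under 0.05 there was 1 in each, where 2009 of the 13575 tested probe sets were in total RNA and 3398 in amplified RNA. The list had medians of 0.036 and 0.011 against -0.016 and 0.022 over all tested probe sets. On the newly transcribed arrays 1 of 12, Tug1 at -1.33, differed by at least 1, where 32.8% of all tested probe sets did. Between amplified and unamplified RNA 6 rose and 3 fell, where 34.1% of all tested probe sets rose and 28.4% fell. Among the 12 were the snoRNA host genes Snhg1 (1.05 ± 0.13, limma, adjusted p = 2.81e-05), Snhg5 (1.00 ± 0.12, adjusted p = 2.97e-05) and Snhg6 (-0.83 ± 0.098, adjusted p = 2.21e-05). Rian, which lies beside Meg3 in the imprinted locus, was too dim for the test. It had 7.3 and 12.5 in contralateral and 21.6 and 42.9 in normal total RNA, and 14.0 in contralateral and 6.8 in normal newly transcribed RNA.

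**Figure D5:**
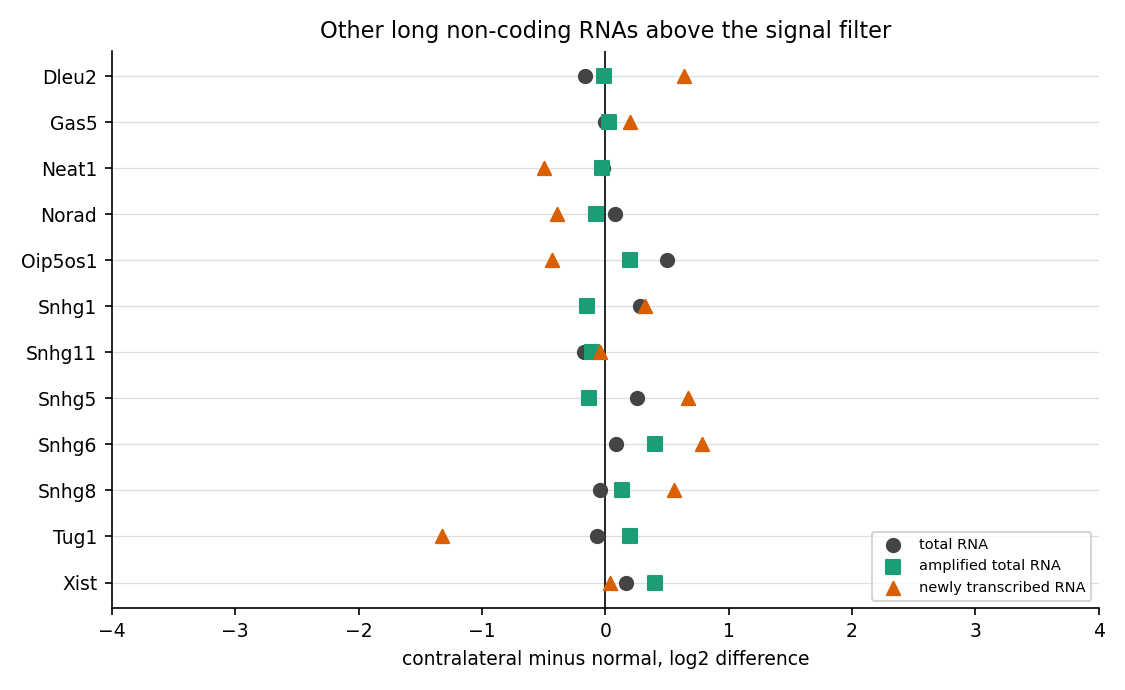
Contralateral minus normal difference (log2) of the 12 other tested long non-coding RNAs in total RNA (circles), amplified total RNA (squares) and newly transcribed RNA (triangles). All but the newly transcribed value of Tug1 lie within 1 of 0.

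Speckle proteins, among which Malat1 resides, were taken next. In total RNA 0 of the 17 tested SR and speckle protein genes passed by limma, and 6 had an unadjusted p under 0.05. The shares over all tested probe sets were 1.92% and 14.8%. In amplified RNA 3 of the 17 were higher and 2 lower in contralateral kidneys, where 4.16% of all tested probe sets were higher and 6.19% lower. Son, a scaffold of speckles, fell by 1.02 ± 0.13 in amplified RNA (limma, adjusted p = 0.000618). The SR protein kinases Clk1 (0.56 ± 0.16, limma, adjusted p = 0.0439) and Clk4 (0.53 ± 0.15, adjusted p = 0.0478) rose there, and passed in 11 and 6 of 18 alternative fits. On the newly transcribed arrays 9 of the 17 were lower and 1 higher by at least 1. Of all tested probe sets 18.5% were lower and 14.3% higher by that much. The list had a median of -1.11 against -0.00015 over all tested probe sets, with Clk1 at -1.71 and Clk4 at -1.66. Between amplified and unamplified RNA 12 rose and 3 fell (median 0.56, against 0.04 over all), where 34.1% of all tested probe sets rose and 28.4% fell. The largest rises were those of Pnn (1.21 ± 0.10, limma, adjusted p = 1.84e-06) and Tra2b (1.20 ± 0.23, adjusted p = 0.000907). These counts rest on the brightest probe set of each gene. For Srrm1 that probe set had contralateral minus normal differences of 0.32 in total and -0.019 in amplified RNA. Another Srrm1 probe set, listed above for going opposite ways like Malat1, had 1.23 and -2.89.

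The paraspeckle proteins, which share RNA-binding partners with Malat1, had 0 of 8 called in total RNA by limma (1 at an unadjusted p under 0.05) and 1 lower in amplified RNA. That was the RNA-binding protein gene Tardbp, at -0.84 ± 0.15 (limma, adjusted p = 0.00418). Over all tested probe sets 1.92% were called in total RNA, where 14.8% had an unadjusted p under 0.05, and 6.19% were lower in amplified RNA. In newly transcribed RNA 2 of the 8 were lower by at least 1, Tardbp (-1.56) and Hnrnpa1 (-1.91), and 0 higher. Of all tested probe sets 18.5% were lower and 14.3% higher by that much. Between amplified and unamplified RNA 7 of 8 rose and 0 fell, against 34.1% and 28.4% of all tested probe sets. Tardbp rose by 1.47 ± 0.10 (limma, adjusted p = 4.65e-07) and Rbm14 by 1.40 ± 0.084 (adjusted p = 1.55e-07). Sfpq, by its brightest probe set, had contralateral minus normal differences of 0.084 in total and -0.38 in amplified RNA. Another Sfpq probe set, listed above for going opposite ways like Malat1, had 1.02 and -1.17. Of the 7 tested genes for RNase P subunits and the tRNA 3' enzyme Elac2, 0 passed in either kidney comparison (limma; at an unadjusted p under 0.05, 1 in total and 0 in amplified RNA). Between amplified and unamplified RNA 2 of these rose and 3 fell, against the same 34.1% and 28.4% of all tested probe sets. Those that fell were the RNase P subunit genes Rpp21 (-1.56 ± 0.12, limma, adjusted p = 7.58e-07), Pop7 (-0.81) and Pop5 (-0.66).

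The list of PRC2 and other partners reported for Malat1 or Meg3 had 0 of 9 called in total RNA by limma (2 at an unadjusted p under 0.05). The shares over all tested probe sets were 1.92% and 14.8%. In amplified RNA the histone methyltransferase gene Ezh1 rose by 0.60 ± 0.14 (limma, adjusted p = 0.0201), the PRC2 recruiter gene Jarid2 fell by 1.04 ± 0.13 (adjusted p = 0.000564) and Elavl1, which codes for an RNA-stabilizing protein, fell by 1.11 ± 0.26 (adjusted p = 0.0216). In that comparison 4.16% of all tested probe sets were higher and 6.19% lower. In newly transcribed RNA 3 of the 9 were lower by at least 1, Suz12 (-2.20), Jarid2 (-1.72) and the PRC2 core gene Eed (-1.48), and 0 higher. The shares over all tested probe sets were 18.5% lower and 14.3% higher. In amplified against unamplified RNA 7 of 9 rose and 2 fell, where 34.1% of all tested probe sets rose and 28.4% fell. Of the 4 tested genes of the p53 axis, the cell cycle inhibitor gene Cdkn1a passed in the kidney comparisons, higher by 2.09 ± 0.14 in total RNA (limma, adjusted p = 5.52e-05) and by 2.16 ± 0.14 in amplified RNA (adjusted p = 1.02e-05). Over all tested probe sets 1.92% and 10.3% passed in these. On the newly transcribed arrays 1 of the 4 was higher by at least 1, Cdkn1a (3.12), and 0 lower. Mdm2 and Mdm4, whose products hold p53 in check, did not pass in either kidney comparison. Between amplified and unamplified RNA Mdm4 rose by 0.69 ± 0.12 (limma, adjusted p = 0.000328) and Mdm2 fell by 0.34 ± 0.10 (adjusted p = 0.0152).

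Other imprinted genes were called in amplified RNA alone. By limma 0 of 14 tested passed in total RNA (1 at an unadjusted p under 0.05), and 2 were higher in contralateral amplified RNA, the zinc finger gene Plagl1 (0.81 ± 0.12, adjusted p = 0.00175) and Impact (0.73 ± 0.15, adjusted p = 0.00952). Over all tested probe sets 1.92% passed in total RNA, where 14.8% had an unadjusted p under 0.05, and 4.16% were higher in amplified RNA. Whether the preparations differed in the calls of imprinted genes was not tested. On the newly transcribed arrays 4 of 14 were higher and 1 lower by at least 1, with a median of 0.41. The shares over all tested probe sets were 14.3% higher and 18.5% lower. Between amplified and unamplified RNA 4 rose and 5 fell, where 34.1% of all tested probe sets rose and 28.4% fell. The cell cycle inhibitor gene Cdkn1c rose the most (1.51 ± 0.12, limma, adjusted p = 1.04e-06) and the matrix gene Dcn fell the most (-1.36 ± 0.11, adjusted p = 1.31e-06). Dlk1, the paternally expressed partner of Meg3, was measured but too dim for the test.

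Neighbours on the chromosome were the 10 nearest measured genes on each side of each gene. Over all tested probe sets 1.92% passed in total RNA, where 14.8% had an unadjusted p under 0.05, and 10.3% passed in amplified RNA. Of the 18 tested around Malat1, 0 passed in total RNA by limma (1 at an unadjusted p under 0.05) and 1 in amplified RNA, the ribosomal protein gene Fau, higher by 0.44 ± 0.10 (limma, adjusted p = 0.0215). On the newly transcribed arrays 7 of these 18 were higher by at least 1 and 0 lower (14.3% and 18.5% of all tested probe sets), with a median of 0.44. Of the 16 tested around Meg3, 0 passed in total RNA by limma (2 at an unadjusted p under 0.05) and 1 in amplified RNA, the transcription factor gene Yy1, higher by 0.48 ± 0.12 (limma, adjusted p = 0.0281), and 2 were higher and 2 lower by at least 1 in newly transcribed RNA. In amplified against unamplified RNA 4 neighbours of Malat1 rose and 7 fell, and 8 neighbours of Meg3 rose and 3 fell. Of all tested probe sets 34.1% rose and 28.4% fell. Rcor1, a neighbour of Meg3, had contralateral minus normal differences of -0.072 in total and 0.11 in amplified RNA by its brightest probe set. Another Rcor1 probe set, listed above for going opposite ways, had 1.11 and -2.04.

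Among tested probe sets of other genes, those most like Malat1 1418189_s_at across the 10 arrays were Rgs5 (Pearson's r = 0.96), Smc1a (0.95), Nedd4 (0.94), Birc6 (0.94) and Luc7l3 (0.93). All 5 were also higher in total RNA (0.42 to 0.75) and lower in amplified RNA (-2.35 to -0.86) in contralateral kidneys, which likeness over the same arrays partly fixes. The least like were Pqlc3, Prss22, Stx17, Klf1 and Fam114a2, with r between -0.95 and -0.93. The most like Meg3 1439380_x_at were Lrwd1 (0.99), Samhd1, Capn15, Tnfrsf1b and Pmpca (each 0.98), all higher by 1.21 to 2.35 on the contralateral newly transcribed array. Glyat and Sub1 were the least like, each at r = -0.995, with newly transcribed differences of -3.50 and -1.26. These values rest on 1 array that stands apart.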

How the data were processed

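The authors deposited 1 intensity per probe set for each of 10 one-colour Affymetrix arrays, on a linear scale, per the values in the file; how probes were summarised and whether arrays were scaled is not given in the sources used here. Per the labels' protocols, RNA was column-purified and labelled by a T7-based method.

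A pseudocount of 11.8, the 25th percentile over all arrays, was added before log2, and arrays were quantile normalized. Of 22690 probe sets, 64 controls were set aside, and 13575 with a mean above the 40th percentile were tested. Symbols came from the platform annotation: 20380 probe sets had 1 symbol, 691 several and 1606 none. limma 3.58.1 (R 4.3.3) fitted 6 group means on all 10 arrays, with 4 residual degrees of freedom, eBayes with an intensity trend and Benjamini-Hochberg adjustment at 0.05. The number of arrays limits the precision. Since newly transcribed RNA had 1 array against 1, a difference of at least 1 (log2) was counted with no test. A listed gene is represented by its brightest probe set, and its other probe sets were left out of the list counts.

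Malat1, Meg3 and the gene lists were chosen with earlier results of these data known. All probe sets of both genes are reported; from each list up to 3 members with the largest called difference per comparison are named, or any of a list of up to 12; likeness names 5 genes at each end. The fit was also run on simulated independent normal values with planted differences. These held no other difference between preparations and no 3' bias, so they do not show how the fit performs on these arrays. Alternatives changed the pseudocount, scaling, filter, trend, arrays in the fit and replicate block, and left out each array. Replicate arrays correlated at 0.978 to 0.989 and 0.441% to 0.811% of their values were identical, so none was a copy.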

Additional observations from a re-analysis of the deposited data

Results flagged for a closer look

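In 5 probe sets the normalized values of every contralateral array lay on one side of the normal arrays in amplified total RNA and on the opposite side in total RNA. The contralateral minus normal difference in amplified RNA minus that in total RNA (log2) was -4.88 for Malat1 1418189_s_at, -4.30 for Malat1 1418188_a_at, -3.86 for Malat1 1452378_at and -1.68 for Malat1 1427285_s_at. For Meg3 1426758_s_at it was 0.86, the other way round, but its deposited amplified intensities, 26.6 and 43.2 in contralateral kidneys, lay on either side of 33.9 and 33.9 in normal kidneys. None of these differences was tested, because such values chose the genes. Among all tested probe sets, 5.98% lay above in total and below in amplified RNA, and 5.79% the reverse.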

How the results depend on the processing

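Of the alternative values of the tests on named genes and on the 6 tested members, 763 of 805 kept their direction and side of the threshold, 41 lost the call, and 1 gained it (Meg3 1426758_s_at, without normal total RNA replicate 1, at -0.36); 0 reversed. Among calls in amplified RNA, Tardbp passed in 17 of 18 alternative fits, Impact in 16, Ezh1 in 15, Elavl1 and Fau in 14 and Yy1 in 13, each with its sign kept. Leaving out arrays moved the count in total RNA most: it ran from 48 (without normal total RNA replicate 2) to 380 (without contralateral amplified RNA replicate 2), where all arrays gave 260, and was 145 without normal total replicate 1, 49 and 135 without contralateral total replicates 1 and 2, and 133 and 131 without normal amplified replicates 1 and 2. In amplified RNA it ran from 510 (without normal amplified replicate 2) to 1418, where all arrays gave 1405, and was 547 without normal amplified replicate 1. The total RNA count was 85 without a filter and 145 without an intensity trend. With a pseudocount of 50, 2794 probe sets in place of 4452 differed by at least 1 between the newly transcribed arrays, and newly transcribed minus amplified RNA gave 2188 in place of 3662 in contralateral and 1577 in place of 2522 in normal kidneys. The cause was not tested in any of these.

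Over the same alternatives the difference of Malat1 1418189_s_at ran from 1.58 to 2.25 in total, -3.08 to -2.82 in amplified and -2.53 to -1.96 in newly transcribed RNA, and the newly transcribed difference of Meg3 1439380_x_at from 3.17 to 3.77. The total RNA difference of Malat1 1438403_s_at ran from -0.24 to 0.85. Of the 30 member differences, 13 reached 1 in size, 13 to 14 when an array was left out, 18 with a pseudocount of 1, 12 with one of 50 and 14 with median scaling.

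Arrays of the same number deviated together little (r from -0.070 to 0.10 between groups), and the labels do not pair them. With the replicate block 277 probe sets passed in total RNA, 1433 in amplified RNA and 8530 between amplified and unamplified RNA, and Clk4 lost its call in amplified RNA (limma, adjusted p = 0.0551).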
